A study of Schmidtea polychroa with 24 samples.

Results

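The step from day 3 to day 4 of *Schmidtea polychroa* embryogenesis was measured in 6 of the 24 whole-cocoon RNA-seq libraries of a developmental time course. The members are the 96 h libraries, replicates 1 to 3, set against the 72 h libraries, replicates 1 to 3, and were chosen by their labelled time alone. The other 18 libraries, at 4, 24, 32, 48, 120 and 168 h after the cocoon was laid, were used for the earlier and later levels of the genes that changed. Each library is a biological replicate made from 4 whole cocoons of a sexual laboratory population. By their labels the 96 h and 72 h groups differ only in time: both came from untreated cocoons of no stated genotype that were held at 20 °C. The labels give no batch or staging detail, so other differences between libraries are not known. The comparison answers one of the questions the study posed, which genes differ between a time point and the one before it.

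*S. polychroa* is a freshwater flatworm whose zygotes carry almost no yolk. A cocoon holds several embryos together with a large mass of maternal yolk cells, and the blastomeres divide while scattered among yolk cells rather than as a compact ball. Embryos of this group form a short-lived embryonic pharynx with which they swallow the surrounding yolk cells, and definitive organs are built later from undifferentiated cells. RNA from a whole cocoon is therefore RNA of embryos and of yolk cells in unknown proportion. In such bulk samples fewer cells of a type and less RNA per cell cannot be told apart. The deposited tables give assembler IDs and no gene names, so tissue markers could not be read and genes are described by level, direction and time course.

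The deposited estimated counts of 60921 assembled transcripts were summed to 22365 assembler genes, of which 15587 had enough counts to be tested. The libraries held 1599902 to 9567933 counts, with 1599902 to 4884092 at 96 h and 1617797 to 2727027 at 72 h. Both groups contain a library that stood apart. Across genes, 72 h replicate 3 had a mean Spearman correlation of 0.68 with the other 72 h libraries and of 0.775 with the 96 h libraries. Replicate 2 at 96 h correlated at 0.841 with its own time and at 0.782 with the 72 h libraries. A pair of genes alone took 32.4 to 44.4% of the counts at 96 h and 53.6 to 61% at 72 h. Replicate 1 at 120 h also stood apart from its time and is given separately wherever 120 h levels are used. The part of these differences in the results was not tested, so the number of genes called is also given with each of these libraries left out.

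At 96 h, 1425 genes were higher than at 72 h (9.14% of the genes tested) and 509 were lower (3.27%). Together these 1934 genes are 12.4% of the genes tested. The call is edgeR's quasi-likelihood test on all 24 libraries at a Benjamini-Hochberg adjusted p under 0.05. Over all tested genes the median log2 fold change was -0.08, which is small beside the changes given below. At an unadjusted p under 0.05 there were 4890 genes.

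The genes that rose changed by more than those that fell. The median log2 fold change of the 1425 rises was 2.13, with quartiles of 1.57 and 2.87. That of the 509 falls was -1.44, with quartiles of -1.79 and -1.21. Genes with at most 3 counts over the libraries of the lower time number 119 among the rises and 21 among the falls. With these set to the bound that 3 counts give, the medians were 2.12 and -1.44. A change of over 4-fold was fitted for 803 rises (56.4%) and for 86 falls (16.9%). These sizes describe the genes the test picked out and are not a test of a difference between the directions.

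The rises took up a large part of the RNA at the later time. The 1425 genes together held 17, 18.5 and 24.6% of all counts in 96 h replicates 1 to 3, against 4.35, 3.19 and 2.91% in 72 h replicates 1 to 3. The 509 falls held 2.51, 2.99 and 2.55% of counts at 96 h, against 5.45, 5.59 and 4.58% at 72 h. In neither set did the ranges of the groups overlap. Since the genes were chosen by this difference, these shares describe its size.

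The typical level of a gene was read in CPM, the count as a share of the TMM-scaled library total, on the usual counts-per-million scale. A rise had a median of 69.4 CPM at 96 h, against 16.6 at 72 h. A fall had a median of 30.3 CPM at 96 h, against 80.2 at 72 h. At 96 h, 513 of the rises stood at 100 CPM or more and 12 at 1000 CPM or more. At 72 h, 215 of the falls stood at 100 CPM or more and 5 at 1000 CPM or more. All 3 libraries at 96 h lay above all 3 at 72 h for 1419 of the 1425 rises, where 24.8% of all tested genes showed that order. They lay below them for 490 of the 509 falls, where 15.1% of all tested genes did.

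Calls were made mostly among genes of middle and high level. Of genes whose mean over both times was under 1 CPM, 0.234% were called higher and 0.117% lower. Of genes at over 100 CPM, 25.5% were called higher and 11.7% lower. Low genes had few counts in these libraries, in which 3 counts correspond to 0.652 to 1.88 CPM at 96 h and 1.34 to 2.92 CPM at 72 h, which limits what could be detected among low genes.

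The most abundant gene that rose averaged 5900 CPM at 96 h, against 1060 at 72 h, with a log2 fold change of 2.48 and an adjusted p of 0.014. Its mean had been 856 CPM at 4 h, and it still stood at 3690 CPM at 168 h. The third in that order averaged 4550 CPM at 96 h, against 380 at 72 h, but only 24.5 CPM at 4 h. All of the 10 most abundant rises were above their 72 h mean at 168 h. The most abundant gene that fell averaged 449 CPM at 96 h, against 1780 at 72 h, with a log2 fold change of -1.99 and an adjusted p of 0.04. At 4 h it had stood at 2370 CPM, and by 168 h it was down to 133 CPM. The second most abundant fall had another course, with 90.5 CPM at 4 h, then 1370 at 72 h, 385 at 96 h and finally 139 at 168 h. The most abundant gene of all the cocoons was not called: it took 26.7, 35.1 and 28.7% of counts at 96 h and 49.7, 47.5 and 30.7% at 72 h (log2 fold change -0.94, adjusted p 0.556). Replicate 3 at 72 h stood close to the 96 h libraries in that gene.

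**Figure D1:**
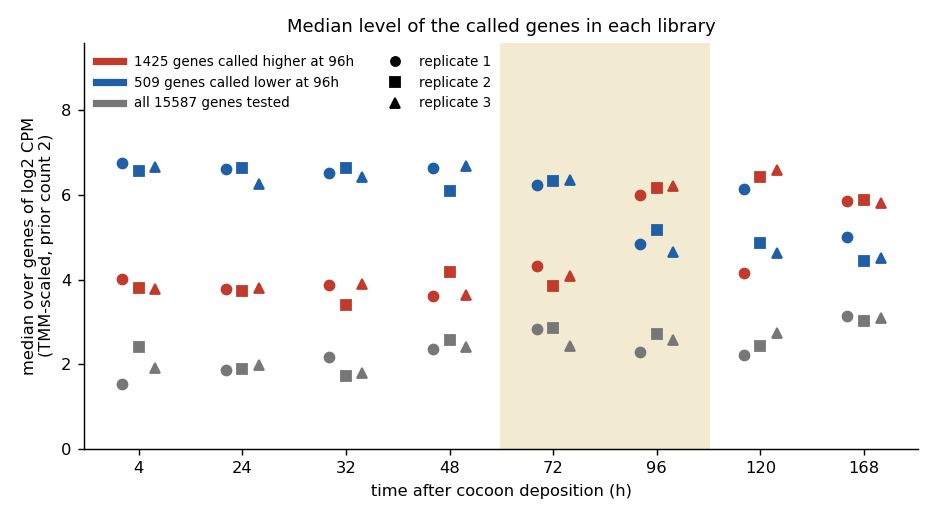
Median log2 CPM over the 1425 genes called higher (red), the 509 called lower (blue) and all 15587 genes tested (grey) in each of the 24 libraries, with time after cocoon deposition on the horizontal axis, a marker shape per replicate and the 72 h and 96 h libraries shaded. The red medians are 6.01 to 6.22 at 96 h and 3.85 to 4.33 at 72 h, and replicate 1 at 120 h, at 4.16, is the only later library near the earlier level.

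Before 72 h the rises had a median level that changed little and lay below that of 96 h. At 4 h it was 14.1 CPM, against 3.67 CPM over all tested genes. Their median log2 CPM lay between 3.78 and 4.01 in the 4 h libraries, between 3.74 and 3.80 at 24 h, between 3.4 and 3.90 at 32 h and between 3.61 and 4.17 at 48 h. The 96 h libraries stood at 6.01, 6.16 and 6.22, against 4.33, 3.85 and 4.09 in the 72 h libraries. The plot of medians by library shows this as a flat course of the median with a step at the contrast that chose the genes. Later libraries were at 4.16, 6.43 and 6.59 at 120 h and at 5.86, 5.87 and 5.8 at 168 h. All but 120 h replicate 1 thus stayed near the 96 h level.

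The falls followed the opposite course from a high start. Their median log2 CPM was 6.56 to 6.75 at 4 h, 6.25 to 6.63 at 24 h, 6.42 to 6.64 at 32 h and 6.10 to 6.69 at 48 h. It was 4.84, 5.17 and 4.65 at 96 h, against 6.24, 6.32 and 6.36 at 72 h. It was then 6.15, 4.87 and 4.64 at 120 h, and 5.01, 4.45 and 4.51 at 168 h. Again replicate 1 at 120 h was at the level of the earlier libraries.

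For each gene, an earlier or later mean was called high if it reached the midpoint of the gene's own 72 h and 96 h means on the log2 CPM scale. By this measure 1206 of the 1425 rises (84.6%) had not been high at 4, 24, 32 or 48 h. The remaining 219 (15.4%) had been high at an earlier time. Of all tested genes with a 96 h mean above the 72 h mean, called or not, 41.7% had been high before. The share of rises that were high was smaller at each earlier time nearer the step: 168 genes at 4 h (11.8%), 102 at 24 h (7.16%), 60 at 32 h (4.21%) and then 40 genes at 48 h (2.81%). At the strict end, 83 rises (5.82%) had at most 3 counts at each of the 4 earlier times.

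Of the falls, 443 (87%) had been present at 4 h at or above the midpoint, against 59.7% of all tested genes with a lower mean at 96 h than at 72 h. The other 66 (13%) had been lower at 4 h and had come up in between. The 4 h mean was above the 72 h mean for 339 falls (66.6%), and over 2-fold above it for 106 (20.8%). The highest of the means from 4 to 72 h was the one at 4 h for 217 falls (42.6%) and the one at 72 h for 75 (14.7%). For most of these genes the drop at 96 h thus came after a level that had been held, or slowly lost, since the cocoon was laid.

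The rises were largely kept to the end of the series. At 168 h, 1257 of the 1425 (88.2%) were still at or above the midpoint, against 78.9% of all tested genes with a higher mean at 96 h than at 72 h. In single 168 h libraries the share was 88.5, 90.3 and 86.2%. In the 120 h libraries it was 11.0, 99.4 and 99.6%, the low value being that of replicate 1. The 168 h mean was at or below the 72 h mean for 7 rises (0.491%). Levels did move after the step: 453 rises (31.8%) had a 168 h mean above the 96 h mean, 124 of them by over 2-fold, and 161 (11.3%) were over 2-fold below it.

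The falls were also largely kept. At 168 h, 411 of the 509 (80.7%) were below the midpoint, against 74.9% of all tested genes with a lower mean at 96 h. The share was 78, 82.3 and 80.2% in the single 168 h libraries and 10.8, 95.7 and 94.3% in those of 120 h. The decrease went on in part of the set, since 316 falls (62.1%) had a 168 h mean below the 96 h mean and 122 (24%) were over 2-fold below it. By contrast, 33 (6.48%) were back at or above their 72 h mean, and 3 had at most 3 counts over the 168 h libraries.

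**Figure D2:**
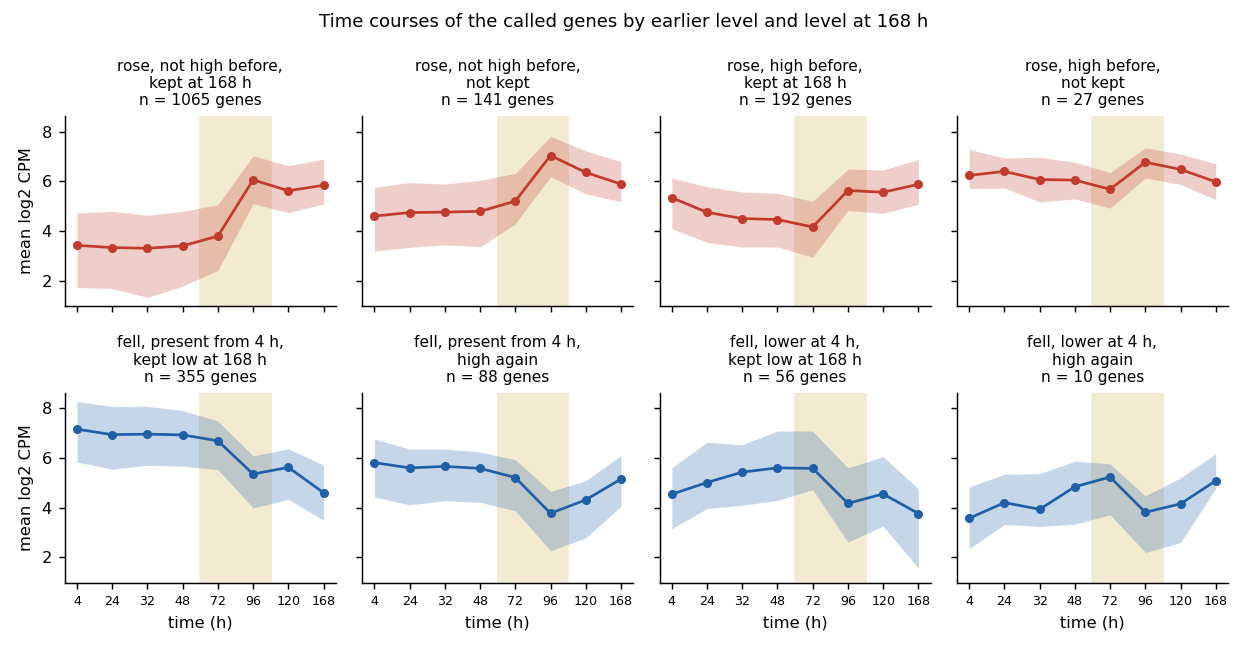
Median (line) and quartiles (band) over genes of the mean log2 CPM at each time in hours, for the called genes divided by their earlier level and by their level at 168 h; the 72 h and 96 h times are shaded. Most rises are in the class of 1065 genes that were not high before and were kept, and most falls are among the 355 genes that were present from 4 h and stayed low.

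Crossing earlier and later levels sorted the called genes into classes, whose rules fix the outline of each time course. The class not high before 96 h and kept at 168 h held 1065 rises (74.7%). Its median level was 10.4 CPM at 4 h, 14.2 at 72 h, 66.7 at 96 h and finally 57.1 at 168 h. A further 141 rises (9.89%) were not high before and not kept. At 96 h these had the highest median of the 4 classes, 132 CPM, against 37.3 at 72 h, and they stood at 59.3 CPM at 168 h. The 192 genes that had been high before and were kept (13.5%) dip at 72 h by the rule of their class. Their medians were 40.3 CPM at 4 h, 17.4 at 72 h, 49.8 at 96 h and finally 58.7 at 168 h. Only 27 rises (1.89%) had been high before and were not kept.

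Of the rises that had been high at an earlier time, 87.7% were at or above the midpoint at 168 h, and of the others 88.3%, with no test of the difference. The median log2 fold change of the step was 2.32 in the class not high before and kept, and 1.52 in the class high before and kept.

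Among the falls, 355 (69.7%) were present from 4 h and stayed low. Their median level was 144 CPM at 4 h, 104 at 72 h, 41 at 96 h and finally 24.8 at 168 h. A set of 88 falls (17.3%) was present from 4 h and high again at 168 h, with medians of 56.2 CPM at 4 h, 37.7 at 72 h, 14 at 96 h and finally 35 at 168 h. The 56 falls that were lower at 4 h and stayed low (11%) have a transient course by the rule of their class. Their medians were 23.7 CPM at 4 h, 52.6 at 72 h, 18.3 at 96 h and finally 13.9 at 168 h. The last 10 (1.96%) were lower at 4 h and high again at 168 h.

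The midpoints use the same 96 h and 72 h libraries that chose the genes, so the later change was also tested between times that are not part of that contrast. Their libraries still share the fit, and so the estimate of spread, with the calls. The shares over all tested genes in these comparisons are not matched for level. At 96 h the median was 69.4 CPM over the rises and 30.3 over the falls, against 5.26 over all tested genes. At 168 h against 48 h, 1153 of the rises (80.9%) were called higher, where 24.6% of all tested genes were, and 4 were called lower. Of the falls, 404 (79.4%) were called lower, where 25% of all tested genes were, and 7 were called higher. The median log2 fold change was 2.04 over the rises, -1.93 over the falls and -0.14 over all tested genes. Seen from the other side, the rises made up 30.1% of the 3831 genes higher at 168 h than at 48 h, and the falls 10.4% of the 3898 genes that were lower.

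At 120 h against 48 h, 1227 rises (86.1%) were called higher, where 14.8% of all tested genes were. Of the falls, 274 (53.8%) were called lower, where 7.67% of all tested genes were. The median log2 fold change was 2.26 over the rises, -1.2 over the falls and -0.11 over all tested genes. With 120 h replicate 1 left out of the fit, which also changes the list, 88.3% of 1376 falls and 93.4% of 2267 rises passed. The rises made up 53.1% of the 2311 genes higher at 120 h, and the falls 22.9% of the 1195 genes that were lower.

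Earlier in the series few genes were called, among all tested genes as among the rises and falls. At 48 h against 4 h, 40 rises (2.81%) were called higher and 56 (3.93%) lower, where 4.56% of all tested genes were called higher and 2.96% lower. Of the falls, 22 (4.32%) were higher and 30 (5.89%) lower at 48 h. The median log2 fold change was 0.09 over the rises, -0.13 over the falls and 0.21 over all tested genes. The share of falls that were lower, 5.89%, was above that of all tested genes, with no test of the difference. The contrasts of 168 h with 96 h and with 72 h share libraries with the step, and only their medians are given: 168 h against 96 h had a median log2 fold change of -0.34 over the rises, -0.33 over the falls and -0.24 over all genes, and 168 h against 72 h had 1.76, -1.8 and 0.06 over the same sets.

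A stricter reading of switching is detection itself. A gene was taken as switched on if it had at most 3 counts over the 72 h libraries together and at least 1 CPM in every 96 h library. There were 471 such genes, 2.11% of the 22365 in the table. They were low: the median of their mean CPM at 96 h was 2.75, with a range of 1.11 to 116, and 33 were at 10 CPM or more. Of these genes 399 were tested and 112 of them (28.1%) were called higher, where 9.14% of all tested genes were. The rule and the call use the same libraries, so this overlap is no result about these genes. At 72 h, 133 of the 471 had no count at all. A total of 3 counts over the 72 h libraries correspond to 0.561 CPM, so a gene under that level cannot be told from an absent one.

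Genes switched off by the reverse rule numbered 36, which is 0.161% of all genes. Their median was 2.61 CPM at 72 h, with a range of 1.58 to 8.77. Of the 17 that were tested, 4 (23.5%) were called lower, where 3.27% of all tested genes were, with the same limit. The counts of genes on and off are not symmetric measures: 3 counts correspond to 0.294 CPM over the 96 h libraries together and to 0.561 CPM over those of 72 h, although 96 h replicate 1 was the shallowest library of all. With every library thinned to the depth of the shallowest, 630 genes were on and 181 off. Which of the counts was larger depended on the libraries: without 72 h replicate 3, 608 genes were on and 664 off, and without both 72 h replicate 3 and 96 h replicate 2, 1330 were on and 2877 off.

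The genes switched on differed in their earlier detection. At most 3 counts were seen at each of 4, 24, 32 and 48 h for 179 of the 471, and 149 of these reached 1 CPM in each of the 168 h libraries. At least 1 library reached 1 CPM for 146 of the 471 at 24 h and for 215 at 48 h, while 27 genes had reached it in every library of an earlier time. At 168 h, 402 (85.4%) reached 1 CPM in each of the 3 libraries and 2 had at most 3 counts, with a median of 5.3 CPM. In the 120 h libraries 21.9, 91.7 and 96% of the 471 reached 1 CPM, and in the 168 h libraries 90.2, 89.2 and 91.7%. Before the step the highest share was 36.5%, in 48 h replicate 2.

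Of the 36 genes switched off, 14 reached 1 CPM in every 4 h library. At 168 h, 7 (19.4%) reached it in every library and 3 had at most 3 counts. At 24, 32 and 48 h, however, only 7, 1 and 8 of the 36 had reached 1 CPM in every library. By this count 168 h does not stand apart from those times. The median of the mean levels was 0.328 CPM at 168 h, against 0.974, 0.929 and 1.37 CPM at 24, 32 and 48 h. All of these levels are close to the floor.

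**Figure D3:**
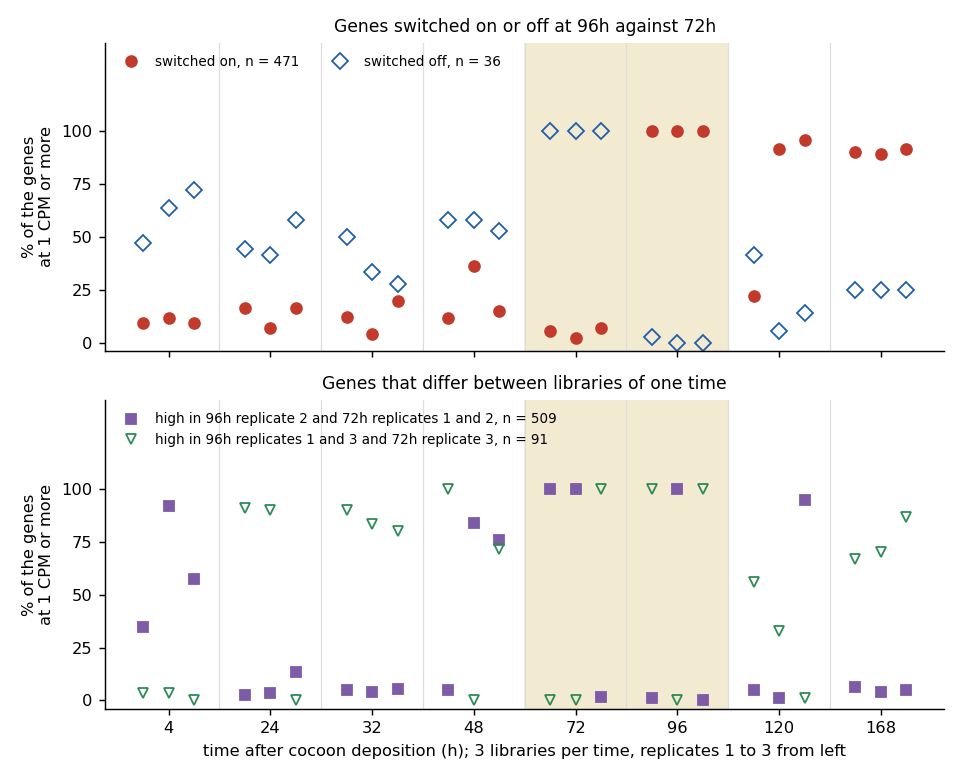
Percent of genes at 1 CPM or more in each library, 3 libraries per time with replicates 1 to 3 from left and the 72 h and 96 h libraries shaded. The upper panel shows the 471 genes switched on (red circles) and the 36 switched off (blue diamonds), which were chosen at the shaded times; the lower panel shows 509 and 91 genes that differ between libraries of one time and are described in the closing observations.

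Individual genes show these patterns with their replicates. TRINITY_DN238558_c4_g1, an assembler gene of 2 isoforms with no name in the files, had the largest fold change among the 1150 rises that had over 3 counts in each 72 h library and 10 CPM in each 96 h library. It was at 356, 436 and 523 CPM in the 96 h libraries, against 34.8, 3.84 and 4.87 CPM in the 72 h libraries. The groups did not overlap, and 72 h replicate 1 was the highest of its group by far. The means were 439 ± 83.6 CPM at 96 h, against 14.5 ± 17.6 at 72 h (SD, n = 3 each), with a log2 fold change of 4.86 (SE 0.93) and an edgeR adjusted p of 0.00656. Without 72 h replicate 1 the log2 fold change was 6.68 (adjusted p 0.0212). Its earlier means were 16.5 ± 2.68 CPM (4 h) and 3.64 ± 1.72 CPM (32 h). Later it was at 21.6, 478 and 431 CPM in the 120 h libraries and at 78.9 ± 6.02 CPM at 168 h. This rise was therefore in part lost by 168 h, although the level stayed above the 72 h mean.

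TRINITY_DN230210_c0_g1, of 1 isoform, was the gene switched on with the highest level in its lowest 96 h library. It had 111, 105 and 133 CPM at 96 h, against 0.447, 0 and 0 CPM at 72 h. The single read at 72 h was in replicate 1. The 1192 counts at 96 h and 1 count at 72 h gave a ratio of 626, with an exact 95% binomial interval of 112 to 24700 that covers counting error only. The edgeR adjusted p was 0.00453; the fitted log2 fold change of 9.09 (SE 1.21) depends on the prior count and was 11.98 without 72 h replicate 1, which holds the single read. One count was seen at 4 h and none at 24, 32 or 48 h. After the step it was at 9.97, 148 and 199 CPM at 120 h and at 49.1 ± 7.61 CPM at 168 h (SD, n = 3), so it stayed detected in every later library.

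TRINITY_DN238990_c0_g1, of 2 isoforms, had the most negative fold change among the 449 falls that had over 3 counts in each 96 h library and 10 CPM in each 72 h library. It was at 8.76, 6.95 and 8.27 CPM in the 96 h libraries, against 71, 54.3 and 66.2 CPM in the 72 h libraries. Each group was narrow and the groups were far apart. The means were 7.99 ± 0.936 CPM at 96 h, against 63.8 ± 8.63 at 72 h (SD, n = 3 each), with a log2 fold change of -3 (SE 0.6) and an edgeR adjusted p of 0.00716. Its earlier means were 78.9 ± 8.71 CPM (4 h) and 33.4 ± 11.8 CPM (24 h). At 120 h its libraries read 35.7, 3.57 and 5.49 CPM, and at 168 h the mean was 13.8 ± 2.18 CPM.

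TRINITY_DN242100_c3_g1, of 2 isoforms, was the gene switched off with the highest level in its lowest 72 h library. It had 0, 0.434 and 0 CPM at 96 h, against 7.59, 4.8 and 2.92 CPM at 72 h. Its 2 counts at 96 h and 30 counts at 72 h gave a level 28.6-fold higher at 72 h, with an exact 95% binomial interval of 7.25 to 247. The edgeR adjusted p was 0.0153. Earlier means were 3.45 ± 0.0699 CPM (4 h) and 3.71 ± 0.993 CPM (48 h), and the 168 h mean was 0.29 ± 0.154 CPM, each with its SD over 3 libraries. It was not seen in 32 h replicate 2 (0 counts) and was at 3.47 and 3.62 CPM in 32 h replicates 1 and 3. The 120 h libraries read 2.49, 0.849 and 0.708 CPM, replicate 1 being the highest. All 168 h libraries were under the lowest 72 h library.

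**Figure D4:**
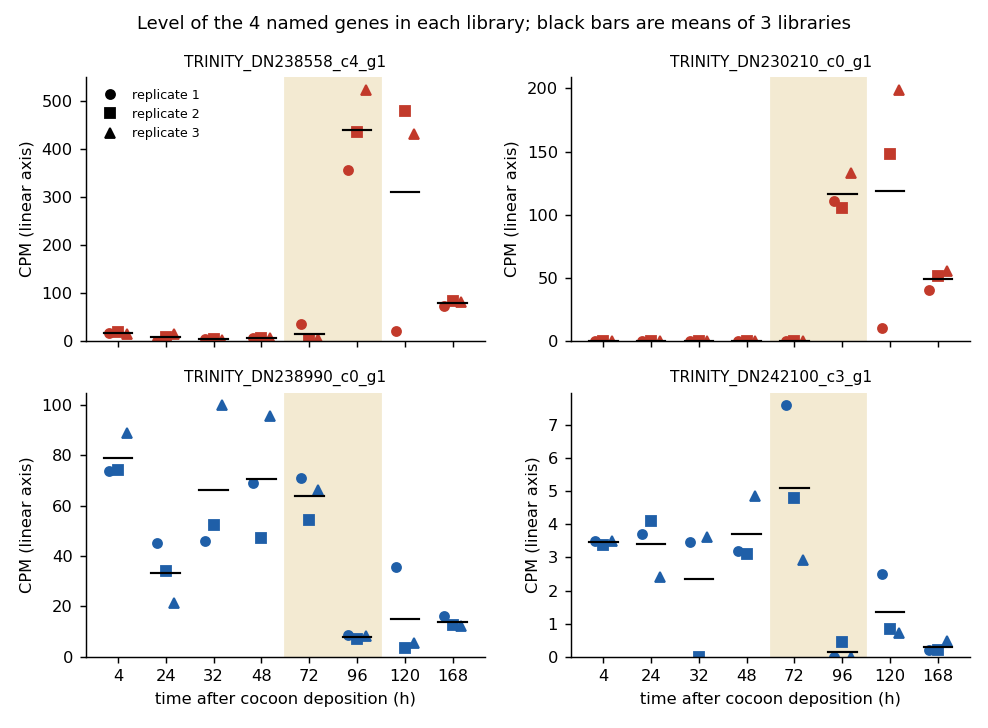
CPM on a linear axis in each library for the 4 genes with an ID, against time after cocoon deposition in hours; marker shapes are replicates, black bars are means of 3 libraries, red marks rises and blue marks falls. In the upper panels every 96 h library lies above every 72 h library, and 120 h replicate 1 lies far below the other 120 h libraries. In the lower panels every 96 h library lies below every 72 h library.

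The 10 largest rises under the same rule as the first of these genes were at 52.1 to 1210 CPM at 96 h, against 3.81 to 81.2 at 72 h, with log2 fold changes of 3.72 to 4.86. At 4 h they had been at 0.131 to 16.5 CPM. At 168 h they were at 36.7 to 694 CPM, and 1 of the 10 had a higher mean then than at 96 h, 152 CPM against 85.6 CPM. The 10 largest falls were at 2.77 to 30.8 CPM at 96 h, against 20.4 to 167 at 72 h, with log2 fold changes of -3 to -2.34. A transient course was seen in 2 of these. The second had 1.76 CPM at 4 h, 138 at 72 h, 17.8 at 96 h and finally 7.52 at 168 h. The tenth had 0.693 CPM at 4 h, 20.4 at 72 h, 4.02 at 96 h and finally 1.96 at 168 h.

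A gene's sum can hide a change among its isoforms. In edgeR's isoform-use test with Simes p-values, 6 of 6396 genes with at least 2 tested isoforms were called (0.0938%), and edgeR's F test per gene called 10. None of the 6 was among the 923 rises or the 392 falls that could be tested. The unadjusted p was under 0.05 for 89 of these 923 rises and 33 of these 392 falls. Over all 6396 genes it was so for 449 (7.02%), a smaller share than in either set, with no test of the difference. The isoform with the highest level was the same at 96 h and 72 h for 824 of 1062 rises with several isoforms (77.6%) and for 331 of 426 falls (77.7%), against 66.8% of all 9860 such genes. The isoform that changed most carried a median of 87.8% of the change of a rise and 70.7% of that of a fall. Rises had a median of 3 assembled isoforms and falls of 4, against 2 over all tested genes.

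The assembler also groups genes into clusters of related sequence, among which reads may be divided. Of the rises, 390 were in a cluster with another tested gene, and 72 of these shared a cluster with another rise, in 35 clusters. Of the falls, 113 were in such a cluster and 16 shared one with another fall, in 8 clusters. Of the 3958 tested genes in such clusters 9.85% rose and 2.85% fell, close to the shares over all tested genes. The levels of these genes may be less certain than those of genes alone in their cluster, which was not tested.

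**Figure D5:**
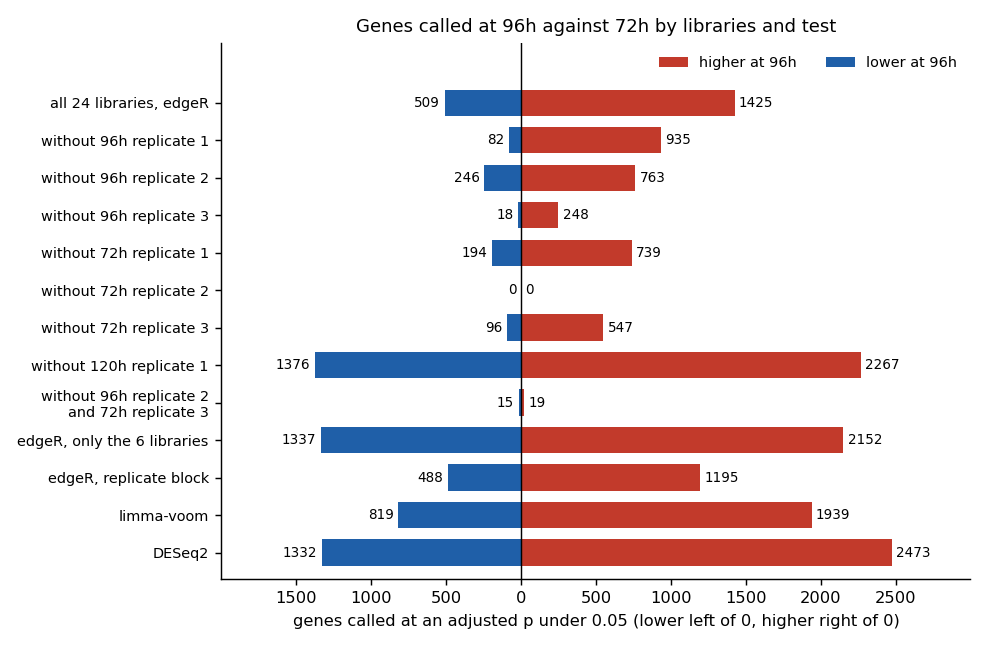
Number of genes called higher (red, right) and lower (blue, left) at 96 h than at 72 h at an adjusted p under 0.05, for all 24 libraries in edgeR and for 12 other choices of libraries and tests. The numbers plotted run from 0 without 72 h replicate 2 to 2473 higher with DESeq2 and 1376 lower without 120 h replicate 1; DESeq2 on the 6 libraries alone, not plotted, called 2851 higher and 2558 lower.

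The number of calls depended on single libraries, as the plot of calls by setting shows. Without a 96 h library, edgeR called 935 higher and 82 lower (replicate 1), 763 and 246 (replicate 2), or 248 and 18 (replicate 3). Without a 72 h library it called 739 and 194 (replicate 1), 547 and 96 (replicate 3), or 0 and 0 (replicate 2). In this last fit the lowest adjusted p was 0.0501, 1015 genes higher and 495 lower had an adjusted p under 0.1, and 2209 and 1559 had an unadjusted p under 0.05; no other tool was run without that library. Without the library least like the others of its time in each group, 96 h replicate 2 and 72 h replicate 3, 19 genes higher and 15 lower were called. Without 120 h replicate 1, 2267 were higher and 1376 lower, among them all 1425 rises and all 509 falls. With 96 h replicate 2 and 72 h replicate 3 both left out, the median log2 fold change was 2.12 over the 1425 rises and -1.58 over the 509 falls. Their signs could hardly turn in these fits, since the groups do not overlap for nearly all of these genes.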

How the data were processed

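Poly(A) RNA of whole cocoons was sequenced as stranded TruSeq libraries with paired reads, per the labels' protocols. The estimated counts per assembled transcript were made by the authors with Trimmomatic 0.32, FastQC 0.11.2 and RSEM, per the submitters' processing notes; the aligner is not given in the sources used here. A second deposited table holds values the authors normalised, a signal whose underlying unit is not stated; it was used in 1 alternative only, as log2(value + 1).

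Estimated counts were summed per assembler gene (ID without the isoform number), rounded, filtered with filterByExpr, scaled by TMM and fitted with edgeR 4.0.16 in R 4.3.3 as a mean per time over all 24 libraries. The common biological coefficient of variation was 0.684. Tested genes held a median of 99.6% of counts. The contrast was 96 h minus 72 h, two-sided, with calls made at an adjusted p (Benjamini-Hochberg) under 0.05. Standard errors were taken from the coefficient and its F value. Levels are TMM-scaled CPM, and log2 CPM used a prior count of 2. The test was tested on simulated data. No pair of replicates was alike enough to be one library (lowest chi-square per degree of freedom 8.16).

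At most 4 IDs are named, by rule: the largest rise with over 3 counts in each 72 h library and 10 CPM in each 96 h library, the gene switched on with the highest lowest 96 h CPM, and the reverse for falls. The members, lists and rules were chosen with earlier results of these data known. Alternatives used DESeq2 1.42.0, limma 3.58.1, other filters, scalings, detection levels and sets of libraries. Intervals and floors cover counting error only.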

Additional observations from a re-analysis of the deposited data

How the results depend on the processing

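Whether the replicate numbers pair the samples cannot be told from so few values: the deviations of 96 h and 72 h libraries with the same number correlated at -0.266, 0.526 and 0.502. With the number as a replicate block, 1195 genes were higher and 488 lower, and 84.6% of falls were lower at 168 h and 64.5% at 120 h than at 48 h. Higher and lower calls numbered 934 and 334 with no low-count filter, 290 and 17 at an adjusted p under 0.01, 2152 and 1337 with the 6 libraries alone, 2473 and 1332 with DESeq2, and 39 and 3 for transcripts. Limma-trend on the authors' table called 2349 higher; limma-voom called 819 lower and the filter of 1 CPM in 3 libraries 221. DESeq2 on the 6 libraries, added after the data were seen, called 2851 and 2558. The median of all genes was -0.08 under TMM, -0.03 under DESeq2 size factors and 0.03 in the authors' table. Leaving out 1 library at a time gave 0 to 2267 higher and 0 to 1376 lower.

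Rises kept at 168 h were 97.4% with no filter, 93.6% with the 1 CPM filter, 94.1% at p under 0.01 and 87.2 to 98% with a library left out. Falls kept were 72.8, 76.5, 64.7 and 61.1 to 85.5% in the same order, and 89.3% with limma-voom. Rises high before were 11.3% with DESeq2 size factors, 11% at p under 0.01, 12.6% with limma-voom and 14.1 to 19.6% with a library left out. Falls present from 4 h were 83.1, 76.5, 80.5 and 77.1 to 89.4% in that order, and 90.1% with no filter.

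Rises higher at 168 h than 48 h were 85.8% with size factors, 94.3% with no filter, 84.7% with the 1 CPM filter, 85.7% with limma-voom and 82.9 to 97.2% with a library left out. Those higher at 120 h were 89.8, 90.1, 89.7, 90.8 and 90.1 to 97.2%. Falls lower at 168 h were 71.9% with no filter, 58.8% at p under 0.01 and 55.6 to 84.4% with a library left out. Those lower at 120 h were 45.5, 23.5 and 50 to 88.3%, with 45.8% under size factors and 77.8% with limma-voom.

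With 96 h replicate 2 and 72 h replicate 3 both left out, chosen after seeing the data, 19 and 15 genes were called. Of these few, 100% of rises and 60% of falls were kept, 66.7% of falls were present from 4 h, 94.7 and 100% of rises were higher at 168 h and 120 h than at 48 h, and 66.7 and 80% of falls were lower. By detection 1330 genes were then on and 2877 off. Detection otherwise gave 189 on and 1 off at 2 CPM, 884 and 123 at 0.5 CPM, 133 and 7 at 0 counts, 181 off after thinning, 1116 and 239 for transcripts, and 592 to 883 on and 62 to 664 off with a library left out. Isoform use was called in 11 genes with the 6 libraries, 10 with the F test and 0 to 4 with a library left out.

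Without 72 h replicate 2 the adjusted p was 0.0501 for TRINITY_DN238558_c4_g1, TRINITY_DN230210_c0_g1 and TRINITY_DN238990_c0_g1 and 0.0575 for TRINITY_DN242100_c3_g1, which was at 0.0809 without 96 h replicate 3. Without both 96 h replicate 2 and 72 h replicate 3, TRINITY_DN238558_c4_g1 was at 0.0562, TRINITY_DN238990_c0_g1 at 0.0622 and TRINITY_DN242100_c3_g1 at 0.0562. No named gene changed sign, but more genes were off than on without 72 h replicate 3 (608 on, 664 off) and with both of these libraries left out. The causes of these differences were not tested, beyond fewer or more libraries and genes entering a fit. Depth limited genes under about 1 CPM.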

Other observations

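Libraries of the same time differed in blocks of genes, and these were chosen after their values were seen. At 96 h, 1511 tested genes (9.69%) were at 4 CPM or more in a library and at 3 counts or fewer and under 1 CPM in another, at 72 h 3194 genes (20.5%) and at 168 h 31 (0.199%). Of these, 7 at 96 h and 51 at 72 h were among the genes called, where 12.4% of all tested genes were. These sets were chosen for a wide spread within a time, which makes a call unlikely. The counts are therefore no result about them.

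A block of 509 genes, a set separate from the falls of the same number, was at 4 CPM or more in 96 h replicate 2 and 72 h replicates 1 and 2, and at 3 counts or fewer in 96 h replicates 1 and 3 and 72 h replicate 3. By this choice each time holds both high and near-absent libraries, so a call between the times was hardly possible. That none of the block was called is therefore no result, although 12.4% of all tested genes were. Elsewhere these genes reached 1 CPM in 468, 293 and 176 genes in the 4 h libraries (replicates 2, 3 and 1), in 426 and 385 genes in 48 h replicates 2 and 3, and in 482 genes in 120 h replicate 3. In 48 h replicate 1 it was 26 genes, in 120 h replicates 1 and 2 it was 26 and 5, and in the 168 h libraries 19 to 32.

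The reverse block held 91 genes, 1 of them called, and has the same limit. This block was high in 96 h replicates 1 and 3 and 72 h replicate 3. It had 3 counts or fewer in the other 3 libraries. It reached 1 CPM for 83, 82 and 0 genes in 24 h replicates 1 to 3, for 91, 0 and 65 genes in 48 h replicates 1 to 3, and for 73 to 82 genes at 32 h. In the 4 h libraries it did so for 0 to 3 genes and in the 168 h libraries for 61 to 79. A reader of the plot of detection by library sees both blocks switch between replicates of one time at 72 h, 96 h and other times. What these libraries differ in was not tested.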
